A study of Mus musculus with 15 samples.

Results

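The SR protein family was examined in antigen-specific CD8+ T cells through 10 genes, Srsf1, Srsf2, Srsf3, Srsf4, Srsf5, Srsf6, Srsf7, Srsf9, Srsf10 and Srsf11. They were chosen by symbol and matched to Ensembl identifiers with GENCODE M21, giving 10 of 55536 annotated genes and 85 of 141862 annotated transcripts. Poly(A) RNA was sequenced from OT-I CD8+ T cells, which carry a transgenic receptor for a peptide of ovalbumin on a Rag1-/- or Rag2-/- background and had been transferred into C57BL/6J recipients. Recipients of the Ag group received the peptide with a rat IgG control, and those of the Ag+Costim group received the peptide with agonist antibodies to the costimulatory receptors OX40 (CD134) and 4-1BB (CD137). Spleen and lymph node cells were sorted as CD8+ T cells at day 4 by the labels (in places the study writes of an earlier day). The mice were of both sexes and, by differing age ranges in the study, several weeks to several months old. Each group had 5 libraries. The labels number them as separate samples without tying each to an animal, so p-values measure the spread between these samples. Naive cells were not analysed here.

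SR proteins bind pre-mRNA through RNA recognition motifs and recruit the splicing machinery through a domain rich in arginine and serine, which kinases of the SRPK and CLK families phosphorylate. They control their own amounts: many SR genes hold a poison exon, a conserved segment whose inclusion brings a stop codon into the reading frame and marks the RNA for nonsense-mediated decay, and many also keep an intron in nuclear RNA. The poison exons of SR genes are among the most conserved sequences of mammalian genomes.

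Of the 85 transcripts, 29 were annotated as protein-coding, 15 as nonsense-mediated decay (NMD), 26 as retained intron and 15 as processed transcript without a coding sequence. A poison exon was taken as an internal exon of an NMD transcript that lies inside an intron of a coding transcript and shares no base with a coding exon. By that rule 5 members (Srsf3, Srsf4, Srsf7, Srsf9 and Srsf11) held 9 such exons. The rule does not ask for a stop codon within the exon, and in Srsf4 only the first exon held it. The exons are not all distinct, since the Srsf4 exons starting at 131886107 and 131886131 overlap and both end at 131886304. The stretches shown run from the first base of the exon to the end of the first in-frame stop codon, which is in capitals, because they show how soon the reading frame ends once the exon is included. They were read 5′ to 3′ from GENCODE M21 transcripts, and coordinates are mm10.
Srsf3, chr17:29039454-29039487, plus strand: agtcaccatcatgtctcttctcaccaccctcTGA
Srsf7, chr17:80205054-80205081, minus strand: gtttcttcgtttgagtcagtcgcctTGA
Srsf9, chr5:115328347-115328428, plus strand: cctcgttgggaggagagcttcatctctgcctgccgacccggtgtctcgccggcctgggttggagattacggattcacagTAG
Srsf11, chr3:158024209-158024231, minus strand: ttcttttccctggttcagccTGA
Srsf4, chr4:131884276-131884390, plus strand: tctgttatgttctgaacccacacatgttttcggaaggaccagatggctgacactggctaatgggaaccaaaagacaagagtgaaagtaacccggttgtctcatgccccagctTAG
Srsf6, chr2:162932815-162932966, plus strand: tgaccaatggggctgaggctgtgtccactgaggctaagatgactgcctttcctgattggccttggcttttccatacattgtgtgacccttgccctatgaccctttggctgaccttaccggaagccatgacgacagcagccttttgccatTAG

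The stop codon came 34 bases into the 456-base exon of Srsf3 and 28 bases into the 460-base exon of Srsf7, so that most of each exon lay after it. It came after 82 of 358 bases in Srsf9, after 23 of 109 bases in Srsf11 and after 115 of 207 bases in the first of the 4 exons of Srsf4. The Srsf6 exon, 268 bases long in the NMD transcript Srsf6-201, did not count as a poison exon, because the coding transcript Srsf6-202 uses its first part. Srsf6-202 held no more than 0.0147% of Srsf6 counts in any library. In Srsf2 the NMD transcript Srsf2-202 ends its reading frame before its 104-base cassette exon (chr11:116851648-116851751), and that exon holds no premature stop. No member transcript of Srsf10 was annotated as NMD.

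Several annotated retained introns hold these exons. The intron kept in Srsf3-204 (2150 bases, chr17:29038625-29040774) holds the Srsf3 poison exon, and the 874-base intron kept in Srsf7-206 and Srsf7-207 (chr17:80204388-80205261) holds that of Srsf7. Srsf6-204 keeps a 1283-base intron around the Srsf6 NMD exon, and Srsf2-203 keeps a 1059-base intron around the Srsf2 cassette. The main intron kept in Srsf5, 1229 bases long (chr12:80947866-80949094) and present in Srsf5-207, Srsf5-209 and Srsf5-212, holds no exon of an NMD transcript.

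The 10 libraries held between 59.6 M (Ag replicate 3) and 639.1 M (mega) estimated counts. Ag replicates 1, 3 and 4 had counts on 48058, 51778 and 40441 genes and TMM scaling factors of 1.40, 1.21 and 1.25. Ag replicates 2 and 5 had 21779 and 20714 genes and factors of 0.907 and 0.826. The Ag+Costim libraries had 28727 to 30340 genes and factors of 0.888 to 0.930. Ag libraries differed among themselves far more than Ag+Costim libraries: the mean log2(CPM + 1) of 30 cell cycle genes was 5.85 and 5.95 in Ag replicates 1 and 4, 8.09 in replicate 3, 8.77 and 8.79 in replicates 2 and 5, and 8.75 to 9.04 in Ag+Costim (CPM is the count scaled to library size, here with TMM factors). CD8 T cell markers were high in every library, with a mean log2(CPM + 1) over 10 genes of 8.56 to 9.47 in Ag and 9.0 to 9.24 in Ag+Costim. Markers of other cells had lower means and were uneven: the mean over 8 B cell genes was 4.67, 2.51, 5.73, 5.04 and 2.52 in Ag replicates 1 to 5 and 2.61 to 3.45 in Ag+Costim, and that over 6 erythroid genes was highest in Ag replicate 3, at 6.07. Single genes were not low: Ighm lay between 500 and 1038 CPM over all libraries, where Cd8a lay between 346 and 680, and the haemoglobin gene Hba-a1 reached 346 CPM in Ag replicate 3. Summed CPM over the B cell list ranged from 659 to 1230 in Ag and from 531 to 785 in Ag+Costim, largely from Ighm, and over the erythroid list from 14.7 to 1103 and from 3.80 to 39.8. The lists for myeloid cells (8 genes, 3.06 to 4.78 in Ag and 3.34 to 4.46 in Ag+Costim) and CD4 T cells (4 genes, 0.76 to 2.23 and 0.68 to 1.47) differed less, and Cd4 itself was at 5.07 CPM or less in each library. The B cell factor Pax5 was at 0 in Ag replicates 2 and 5. The part of these cells, of the cell cycle level or of the number of genes with counts in the results below was not tested.

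Per unit length, Srsf3 and Srsf7 were the most abundant members. On a scale of counts divided by transcript length and set to 1 common total per library (as in TPM), Srsf3 stood at 353 ± 129 (SD, n = 5) for Ag and 499 ± 51.4 for Ag+Costim, and Srsf7, which shares its architecture and adds a zinc knuckle, at 340 ± 74.7 and 484 ± 54.2. These neighbours overlapped in both groups. Srsf5 followed at 284 ± 84.4 and 315 ± 19.1, overlapping with Srsf7 in Ag but not in Ag+Costim, and lay above the next member, Srsf11, in every library of both groups.
Srsf11 (145 ± 17.2 and 168 ± 10.2), Srsf6 (110 ± 26.8 and 173 ± 16.4), Srsf2 (108 ± 43.5 and 174 ± 49.9), Srsf4 (96.2 ± 19.1 and 122 ± 13.0), Srsf1 (83.2 ± 14.8 and 127 ± 7.75) and Srsf10 (82.8 ± 13.7 and 117 ± 10.8) each overlapped with the next in both groups. Srsf9, the scarcest member, stood at 59.0 ± 17.8 and 71.9 ± 18.9 and lay clear of Srsf10 in Ag+Costim. The order at the top changed between libraries, since Srsf5 ranked first in Ag replicates 1 and 4 and behind Srsf3 and Srsf7 in all others.

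To ask whether costimulation changed the amount of SR protein RNA beyond antigen priming, gene counts of Ag+Costim and Ag were compared. Each of the 10 members had a higher mean in Ag+Costim, and for none of them did the difference pass the threshold of the main test. Using edgeR's quasi-likelihood test with Benjamini-Hochberg (BH) adjustment, all 10 members passed the filter on low counts and 0 were called, against 0 of 24262 genes tested (0%). At an unadjusted p of 0.05, 3 members (Srsf1, Srsf10 and Srsf11) passed, all higher, where 7.89% of all genes and 20.2% of the 8626 genes with a mean of at least 10 CPM did so in that direction. In bulk RNA, a change in the number of cells that express a gene and a change in the RNA of each cell cannot be told apart.

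Srsf1 (chr11:88047373-88053755), the founding SR protein and a proto-oncogene, showed the clearest difference. Its level was 124, 271, 230, 143 and 206 CPM in Ag replicates 1 to 5 and 318, 330, 318, 407 and 356 CPM in Ag+Costim. All Ag+Costim libraries lay above all Ag libraries, which was so for 1 of the 10 members, for 4.48% of all genes tested and for 11.3% of the genes with at least 10 CPM. The mean moved from 195 ± 61.3 to 346 ± 37.5 CPM (SD, n = 5 per group). The log2 fold change was 0.83 (SE 0.22, BH-adjusted p = 0.193 in edgeR). DESeq2 gave Srsf1 a log2 fold change of 0.72 with an adjusted p of 0.0103, and called no other member, against 2.57% of genes called higher. The DESeq2 share among genes with at least 10 CPM was not counted.

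**Figure D1:**
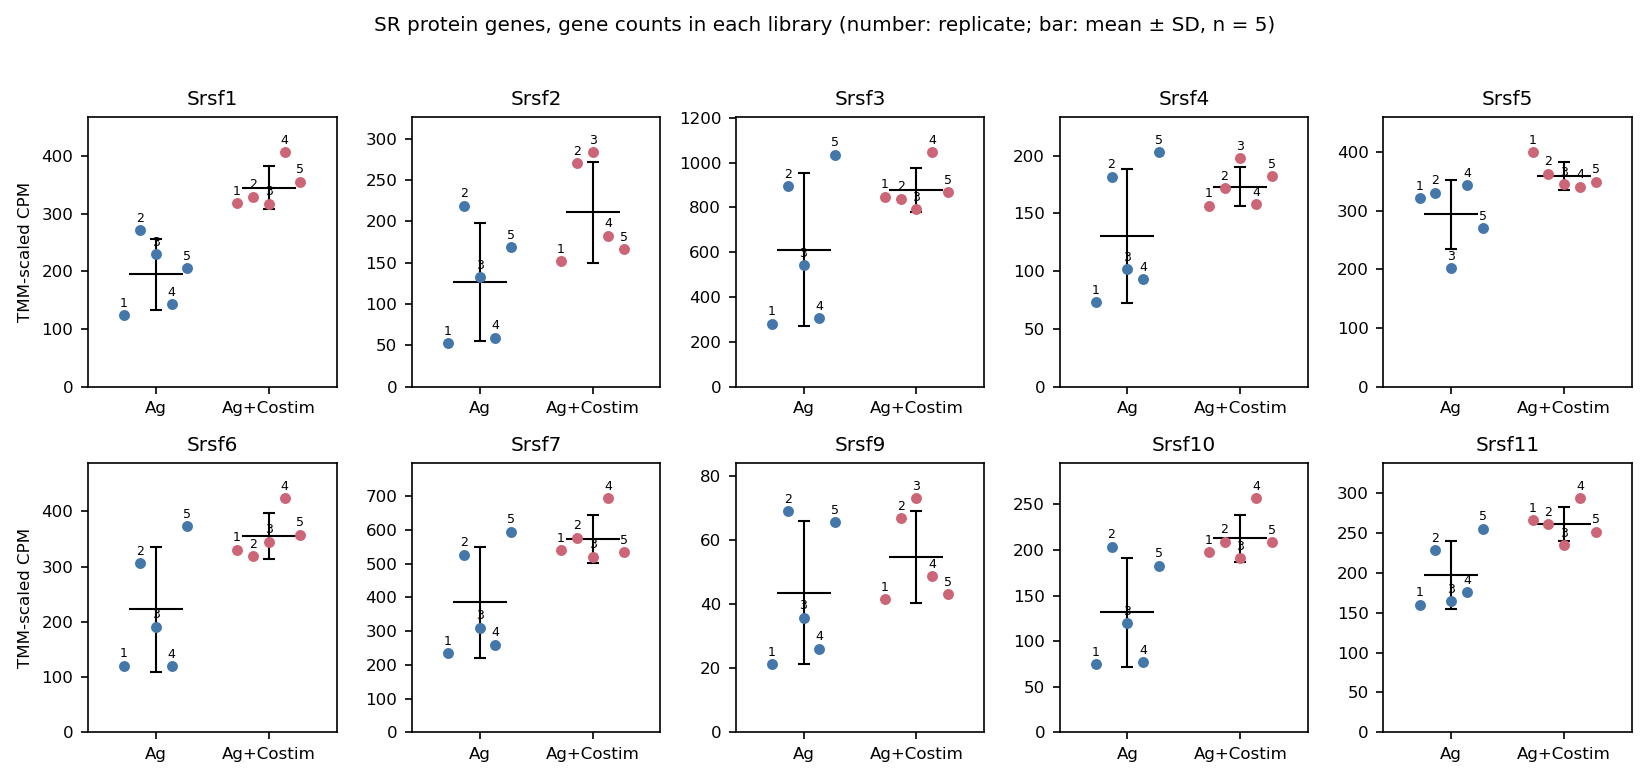
TMM-scaled CPM of the 10 SR protein genes (vertical axes, each from 0) in 5 Ag and 5 Ag+Costim libraries, with replicate numbers beside the points and mean ± SD as black bars. The groups were apart for Srsf1, and for every gene but Srsf5 Ag replicates 1 and 4 lay among the 3 lowest Ag libraries.

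Srsf2 and Srsf3, like most members, overlapped between the groups because of Ag replicates 2 and 5. Srsf2, long known as SC35 and a marker of nuclear speckles, was at 52.8, 219, 132, 59.2 and 168 CPM in Ag and at 152, 270, 284, 183 and 166 CPM in Ag+Costim (log2 fold change 0.74, SE 0.39, BH-adjusted p = 0.298 in edgeR). Srsf3, the smallest SR protein, which also takes part in mRNA export, was at 280, 896, 542, 306 and 1035 CPM in Ag and at 849, 840, 793, 1046 and 868 CPM in Ag+Costim (0.52, SE 0.35, BH-adjusted p = 0.371). Ag replicates 2 and 5 reached the Ag+Costim range for both genes, whereas replicates 1, 3 and 4 lay below it.

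Srsf7 and Srsf6 followed the same libraries. Srsf7 was at 234, 526, 311, 260 and 595 CPM in Ag and at 540, 577, 521, 693 and 534 CPM in Ag+Costim (log2 fold change 0.57, SE 0.27, BH-adjusted p = 0.276 in edgeR). Srsf6, a classical SR protein with a pair of RNA recognition motifs, was at 121, 307, 192, 120 and 374 CPM and at 331, 319, 345, 424 and 358 CPM (0.68, SE 0.31, BH-adjusted p = 0.274). Ag replicate 5 lay inside the Ag+Costim range of both genes, and Ag replicate 2 lay inside it for Srsf7 and just under it for Srsf6.

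Srsf10, which turns into a splicing repressor when dephosphorylated, was at 75.1, 204, 120, 76.9 and 183 CPM in Ag and at 198, 209, 191, 257 and 209 CPM in Ag+Costim (log2 fold change 0.69, SE 0.29, BH-adjusted p = 0.263 in edgeR). Srsf11 was at 160, 228, 165, 175 and 255 CPM in Ag and at 265, 261, 234, 293 and 251 CPM in Ag+Costim (0.41, SE 0.17, BH-adjusted p = 0.260). In each of these genes 1 Ag library, replicate 2 for Srsf10 and replicate 5 for Srsf11, reached the Ag+Costim range.

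Srsf4, Srsf9 and Srsf5 had adjusted p-values over 0.3 as well. Srsf4, one of the larger SR proteins, was at 73.3, 182, 102, 92.8 and 203 CPM in Ag and at 157, 172, 198, 158 and 182 CPM in Ag+Costim (log2 fold change 0.41, SE 0.27, BH-adjusted p = 0.367 in edgeR). Srsf9 was at 21.3, 69.0, 35.8, 26.1 and 65.6 CPM in Ag and at 41.6, 67.0, 73.1, 48.8 and 43.1 CPM in Ag+Costim (0.33, SE 0.34, BH-adjusted p = 0.544). Without Ag replicates 1 and 4 the Srsf9 difference turned to -0.04. Srsf5 stood apart in its pattern, with 321, 331, 202, 344 and 270 CPM in Ag and 400, 363, 346, 341 and 350 CPM in Ag+Costim (0.29, SE 0.17, BH-adjusted p = 0.313). Its lowest Ag library was replicate 3 and its highest replicate 4, and with total counts in place of TMM factors its difference was -0.00.

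The Ag libraries were further apart than the Ag+Costim libraries in each member. The highest Ag library exceeded the lowest by 4.15 times for Srsf2, 3.69 times for Srsf3 and 3.11 times for Srsf6, and by 1.70 and 1.597 times for Srsf5 and Srsf11, whereas within Ag+Costim the ratio lay between 1.17 (Srsf5) and 1.87 (Srsf2). Ag replicates 1 and 3 lay under the whole Ag+Costim range in all 10 members, Ag replicate 4 in all but Srsf5, and Ag replicates 2 and 5 reached or passed its lower end in 6 and 7 members. The same 2 libraries had cell cycle levels within the Ag+Costim range.

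**Figure D2:**
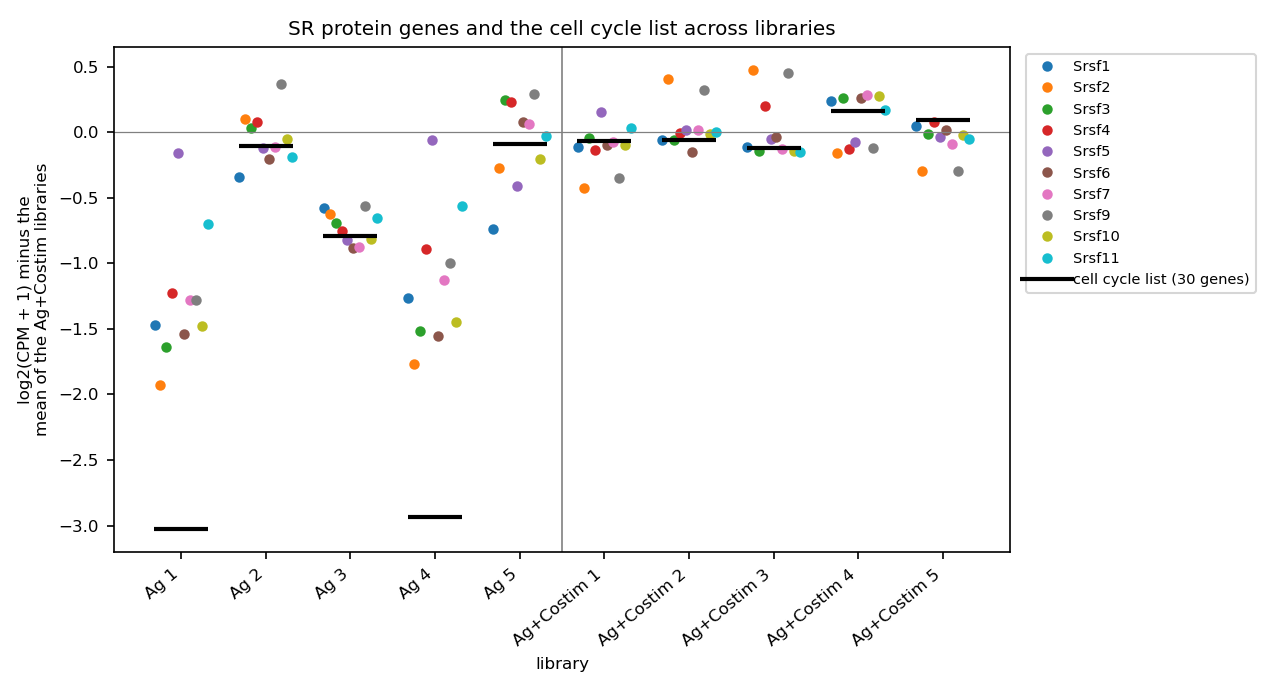
Level of each SR protein gene (coloured points) and mean level of 30 cell cycle genes (black bars) per library, as log2(CPM + 1) minus the mean of the 5 Ag+Costim libraries. Ag replicates 1 and 4 were low in 9 of the 10 genes and in the cell cycle list, and Srsf5 stayed near its Ag+Costim level there.

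The median log2 fold change of the members was 0.55, where that of all genes tested was -0.32 and that of the 8626 genes with a mean of at least 10 CPM was 0.24. With DESeq2 size factors the medians of the members and of the genes of at least 10 CPM were 0.45 and 0.12, with total counts 0.38 and -0.00, and with the upper quartile 0.36 and 0.02, so that the members lay above the shift of well-expressed genes in each. All 10 members were above that shift with each of these scalings, although Srsf5 was barely so with total counts (-0.00198 against -0.00251). Leaving out single libraries left 9 or 10 members above it. Leaving out Ag replicates 1 and 4, a choice made after seeing the data, brought the member median to 0.29, with 0.15 for the genes of at least 10 CPM, and 7 of 10 members above it. Weighting each library by its quality, limma voom called 9 of 10 members higher, all but Srsf5 (BH-adjusted p = 0.150), where it called 25.7% of all genes higher and 57.6% of the genes with at least 10 CPM. In that fit Ag replicates 1 and 4 had weights of 1.42 and 2.00, and Ag replicates 2 and 5 weights of 0.0986 and 0.0656. The count of members called was thus 0, 1 or 9 with the test.

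**Figure D3:**
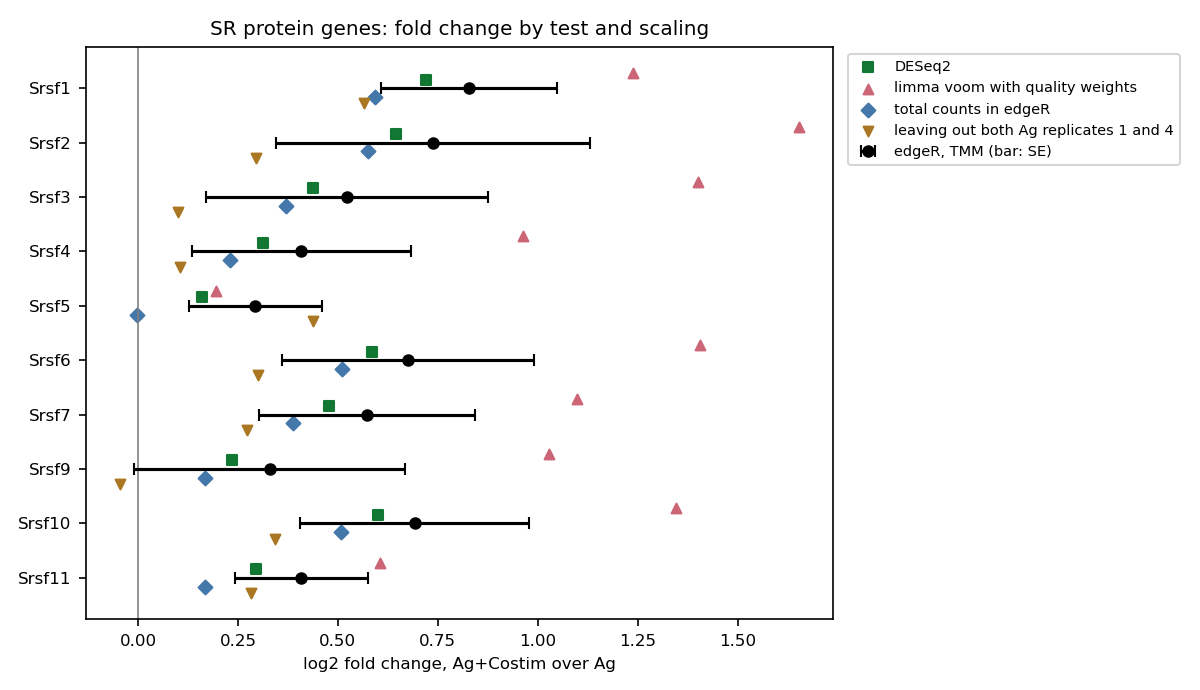
Log2 fold change of each SR protein gene, Ag+Costim over Ag (horizontal axis), from edgeR with TMM factors (black, with SE) and from 4 other settings (coloured markers). Srsf1 had the highest edgeR value, 0.83, the weighted limma values lay furthest right in all genes but Srsf5, and Srsf5 (-0.00 with total counts) and Srsf9 (-0.04 without Ag replicates 1 and 4) crossed 0.

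Among all 8626 genes with at least 10 CPM, the 5 whose centred log2 CPM profile over the 10 libraries lay nearest to the mean profile of the members were Arl1, Mapre1, Akt1, Dnajb6 and Gusb, at root mean square distances of 0.066 to 0.075. Of the members, Srsf7 lay nearest to that mean (0.10) and Srsf5 furthest from it (0.48).

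The transcripts behind these totals were examined next, because SR genes are controlled by the share of their RNA that can be translated. At the level of single transcripts, 72 of the 85 were tested and 0 were called by edgeR, against 6 of 59949 transcripts (0.01%). At an unadjusted p of 0.05, 9 of the 72 passed, where 10.8% of all transcripts did. The lowest p belonged to the NMD transcript Srsf6-201, at 12.4, 20.0, 10.3, 13.9 and 28.4 CPM in Ag and 39.4, 22.6, 37.9, 28.2 and 56.6 CPM in Ag+Costim (log2 fold change 1.12, SE 0.34, BH-adjusted p = 0.460 in edgeR). The groups overlapped through Ag replicate 5, and the main coding transcript Srsf6-203 had a log2 fold change of 0.63 (SE 0.39). The authors' splicing values for part of the NMD exon of Srsf6-201, given below, had the opposite order of groups.

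In Srsf3, between 4.66% and 43.5% of the counts fell on NMD transcripts. The share was 18.3, 17.4, 19.2, 43.5 and 34.3% in Ag replicates 1 to 5 and 8.53, 4.66, 5.82, 33.2 and 7.98% in Ag+Costim. Replicate 4 was the highest library in each group. Without it the remaining Ag+Costim libraries lay below all Ag libraries, a comparison chosen after its value was seen. How many of all genes part in this way without their most contrary library was not counted. The means were 26.6 ± 11.8% and 12.0 ± 11.9% (SD, n = 5), a difference of -14.5 points (two-sided exact permutation test, p = 0.127, BH-adjusted p = 0.807). Counts behind the NMD shares and poison exon inclusion were not divided by transcript length, so neither is a fraction of RNA molecules. By poison exon inclusion, the counts on transcripts that hold the exon over these and those that skip it, Ag stood at 24.2, 18.5, 21.9, 59.1 and 35.9% and Ag+Costim at 9.64, 5.21, 6.30, 36.0 and 8.78% (31.9 ± 16.6% and 13.2 ± 12.9%). This difference of -18.7 points had an exact permutation p of 0.0873 and a BH-adjusted p of 0.673. Leaving out Ag+Costim replicate 4 gave -24.4 points with an exact p of 0.0159 and a BH-adjusted p of 0.889 over all exons, and leaving out Ag replicate 4 gave -11.9 points with an exact p of 0.175. These values were the ends of the range over all single libraries left out in turn.

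In Srsf7, poison exon inclusion was 35.1, 12.9, 10.7, 33.9 and 7.24% in Ag and 15.01, 11.04, 12.7, 9.57 and 12.5% in Ag+Costim. Ag replicates 1 and 4 were more than 2 times as high as any other library, and the other Ag libraries overlapped with Ag+Costim. The means of 20.0 ± 13.4% and 12.2 ± 2.03% differed by -7.81 points (exact permutation test, p = 0.373, BH-adjusted p = 0.855), and by -4.03 or -4.33 points without Ag replicate 1 or 4.
In CPM, the poison transcript Srsf7-203 was at 61.2, 60.7, 28.2, 62.5 and 42.9 in Ag and at 68.5, 55.0, 60.0, 63.1 and 60.6 in Ag+Costim. The main coding transcript Srsf7-201 was at 97.3, 311, 173, 108 and 392 CPM in Ag and at 285, 343, 322, 456 and 322 CPM in Ag+Costim. Ag replicates 1 and 4 had the lowest coding levels of all libraries, and their Srsf7-203 levels were the highest within Ag but inside the Ag+Costim range.

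**Figure D4:**
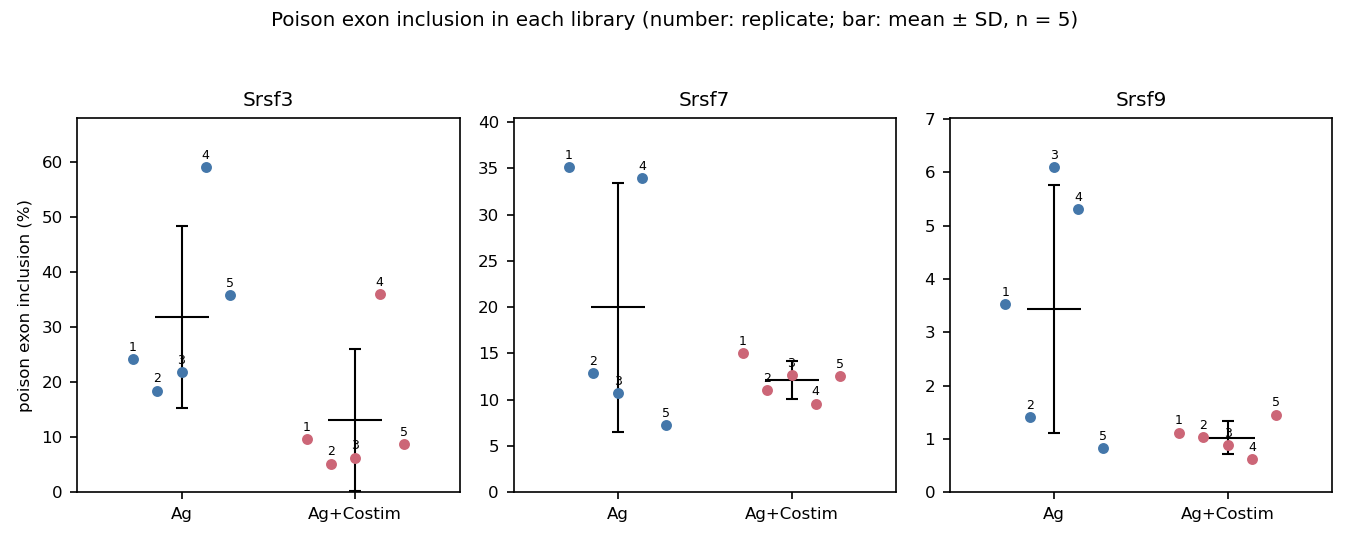
Poison exon inclusion in percent (vertical axes, each from 0) for Srsf3, Srsf7 and Srsf9 in 5 Ag and 5 Ag+Costim libraries, with replicate numbers and mean ± SD. Replicate 4 was the highest of each group in Srsf3, Ag replicates 1 and 4 stood out in Srsf7, and the groups overlapped in all 3 genes.

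Srsf9, Srsf11 and Srsf4 had only a small share of counts on transcripts with their poison exons. Inclusion in Srsf9 was 3.53, 1.42, 6.09, 5.30 and 0.83% in Ag and 1.12, 1.04, 0.88, 0.62 and 1.46% in Ag+Costim (3.43 ± 2.32% and 1.02 ± 0.31%, exact permutation test, p = 0.0714, BH-adjusted p = 0.673). The groups overlapped through Ag replicates 2 and 5. Both exons of Srsf11 lay between 1.09% and 6.46% in all libraries, and the 4 exons of Srsf4 between 1.06% and 3.73%, with exact p from 0.270 to 0.802 over these 6 exons. Of the 9 poison exons, 0 were called and 0 were lower in Ag+Costim without overlap, against 0% and 1.28% of the 1252 exons tested in all genes (93 had an unadjusted p under 0.05).

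NMD shares of the other members were small or overlapped widely. The NMD share of Srsf6 was 10.4, 6.41, 5.55, 12.3 and 6.99% in Ag and 12.1, 7.18, 10.9, 6.37 and 15.6% in Ag+Costim, a mean difference of 2.1 points and the only positive one, which was 0.80 points without Ag+Costim replicate 5. The authors' splicing values for part of the Srsf6 NMD exon, given below, are a different measure. They were well under these shares and had the opposite order of groups. Srsf1, Srsf2, Srsf4, Srsf5 and Srsf11 had group means between 0.01% and 3.33%. Over the 9 members with an NMD transcript, 0 were called and 0 lay lower without overlap, against 0% and 0.461% of 3252 genes (208 had an unadjusted p under 0.05). The median difference over all those genes was 0.00 points.

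Retained intron transcripts took a larger part. Srsf5, a classical SR protein like Srsf4 and Srsf6, had 52.1, 33.4, 37.4, 53.9 and 23.4% of its counts on retained intron transcripts in Ag and 37.9, 36.8, 29.0, 32.5 and 32.6% in Ag+Costim, mostly on Srsf5-212. Ag replicates 1 and 4 were the highest of all libraries and replicate 5 the lowest. Shares in Srsf7 were 24.5, 12.1, 12.5, 24.6 and 8.34% in Ag and 14.1, 12.6, 9.76, 9.10 and 10.4% in Ag+Costim, and those in Srsf3 were 24.1, 5.87, 12.1, 26.3 and 4.49% and 11.4, 10.6, 7.47, 7.74 and 9.06%. Replicates 1 and 4 were again the highest libraries.
In Srsf2 and Srsf6 the retained intron share reached 15.1% and 16.4% in Ag replicate 1 and 13.2% and 9.76% in Ag replicate 4, where the Ag+Costim libraries lay between 1.28% and 4.03% for Srsf2 and between 2.43% and 8.95% for Srsf6. All 8 members with such transcripts had a lower mean in Ag+Costim, by -0.73 (Srsf1) to -6.25 points (Srsf5), as did 89.0% of all 6517 genes tested, whose median difference was -1.05 points. Of the 8 members 0 were called and 0 lay lower without overlap (exact permutation p from 0.175 to 0.532), against 0% and 3.19% of all genes (941 had an unadjusted p under 0.05). In CPM, the transcript that keeps the poison intron of Srsf3, Srsf3-204, was at 60.0, 50.05, 58.9, 71.5 and 46.9 in Ag and 88.9, 81.9, 55.0, 81.4 and 75.1 in Ag+Costim (log2 fold change 0.41, SE 0.19, BH-adjusted p = 0.464 in edgeR), so that 4 of 5 Ag+Costim libraries lay above every Ag library. The coding transcript Srsf3-202 ranged from 86.6 to 699 in Ag and from 645 to 728 in Ag+Costim.

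**Figure D5:**
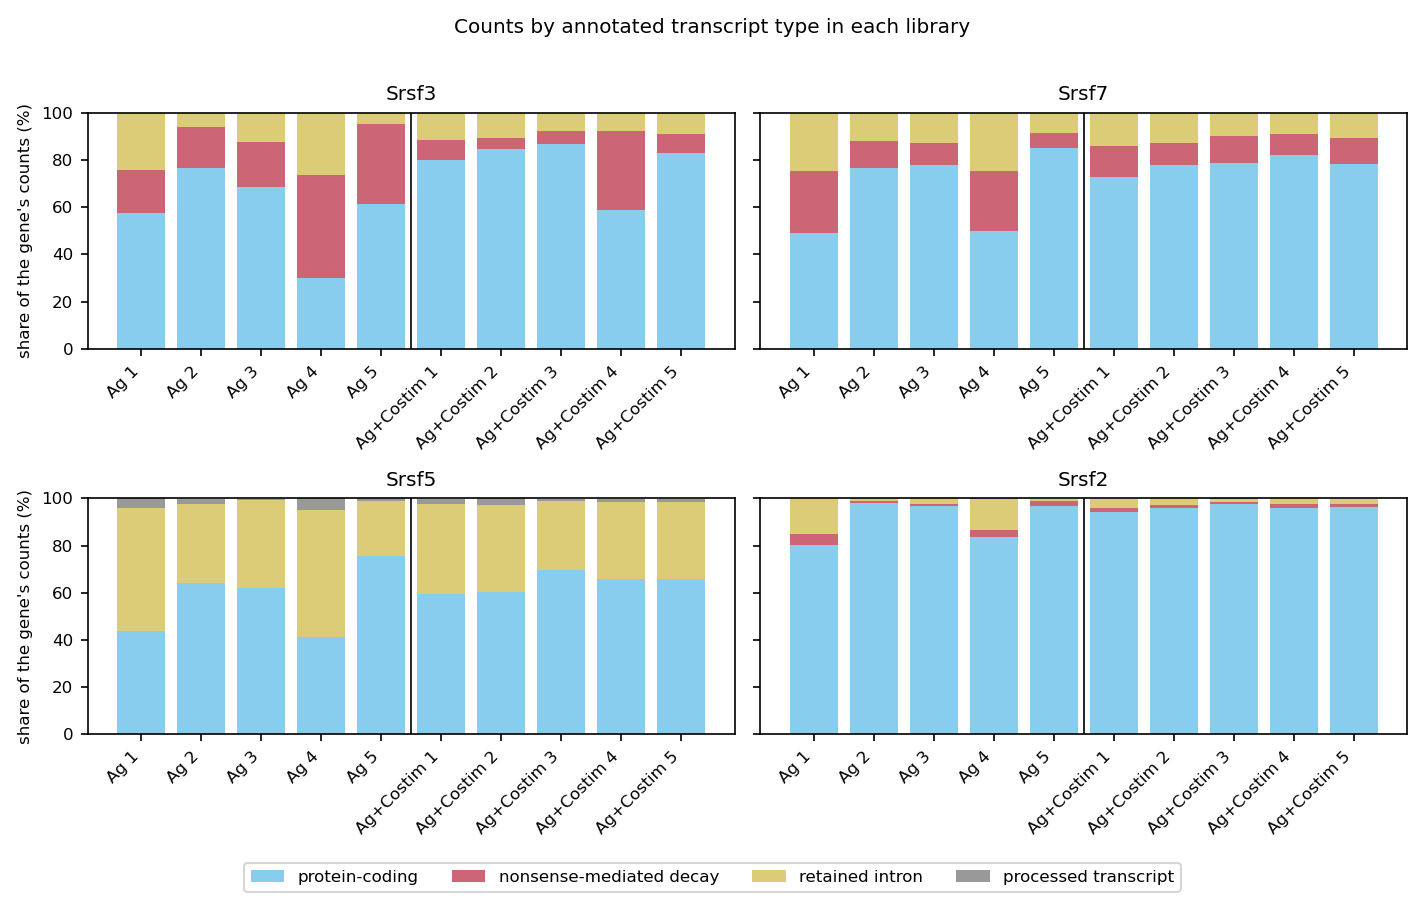
Share of each gene's counts (vertical axis, percent) on protein-coding, NMD, retained intron and processed transcripts in every library, for Srsf3, Srsf7, Srsf5 and Srsf2. Ag replicates 1 and 4 had the lowest coding shares in Srsf7 (49.0% and 49.8%), Srsf5 and Srsf2, and Ag replicate 4 in Srsf3 (30.1%).

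Counts on coding transcripts alone separated the groups in 2 members. The coding level of Srsf1 was 117, 264, 225, 135 and 201 CPM in Ag and 309, 321, 309, 399 and 349 CPM in Ag+Costim. That of Srsf5 was 141, 212, 125, 142 and 204 CPM in Ag and 239, 219, 241, 225 and 231 CPM in Ag+Costim, so that its groups, which overlapped in the gene total, did not overlap here, with TMM factors or with total counts. With total counts the margin was narrow, at 199 CPM for the lowest Ag+Costim library and 196 CPM for the highest Ag library. Over all genes with at least 50 counts per library 9.08% were higher without overlap by this measure, and no test was made of it. The Srsf3 coding level was 161, 687, 372, 92.1 and 634 CPM in Ag and 678, 711, 687, 617 and 720 CPM in Ag+Costim, with Ag replicates 2 and 5 inside the Ag+Costim range.

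Usage of transcripts within genes was tested with edgeR's diffSpliceDGE, which called 31 of 10441 genes (0.297%, 670 with an unadjusted p under 0.05) and 0 members. The lowest p belonged to Srsf10 (BH-adjusted p = 0.0867 in edgeR, largest change of a mean share 0.06). Its smallest transcript p was that of the processed transcript Srsf10-201, which held 10.02% of counts in Ag replicate 3, the library with the highest erythroid and B cell levels, and at most 0.78% in all others. Srsf7 came next (BH-adjusted p = 0.136 in edgeR) through the coding transcript Srsf7-202, at no more than 0.59% of counts in any library. The largest change of a mean share in the family was in Srsf3, where the coding transcript Srsf3-202 had 58.8 ± 17.7% in Ag and 78.7 ± 11.3% in Ag+Costim (BH-adjusted p = 1 in edgeR).

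Percent spliced in (PSI), the fraction of RNA that includes a segment, was deposited by the authors as 1 value per group, so it has no replicate error here. Of 77 events in the members 5 (6.49%) differed by more than 0.05, where 11.9% of all 138940 events did. In Srsf1 the authors' pooled PSI of a segment typed as retained intron (chr11:88049216-88049411) was 0.181 in Ag and 0.0775 in Ag+Costim, and that of the 3′ end segment chr11:88051491-88053755 was 0.126 and 0.0753. In Srsf2 the segment chr11:116850354-116850855, also typed as retained intron, was at 0.828 and 0.912, and its cassette exon described above at 0.0334 and 0.00037. The PSI of these Srsf1 and Srsf2 segments thus differed in opposite directions. By these values most RNA included the Srsf2 segment in both groups, whereas the Srsf1 segment was included in a minority. A higher PSI of the Srsf2 segment therefore need not mean more unproductive RNA, and its relation to the NMD transcripts was not tested.
The other 2 events were start segments of Srsf6, at 0.577 and 0.716 (chr2:162931528-162931660) and at 0.423 and 0.284 (chr2:162931661-162931777). The part of the Srsf6 NMD exon that coding RNA shares was included at a fraction of 0.0195 in Ag against 0.0045 with costimulation. Srsf6-201, which holds that exon, had mean count shares of 8.33% in Ag and 10.4% in Ag+Costim. The measures are unlike, since the share counts a whole transcript without division by length and the PSI covers part of the exon. The count share of Srsf6-201 was well above the PSI in both groups and had the opposite order of means. PSI therefore did not show the higher level of Srsf6-201 in Ag+Costim, and the cause of the difference was not tested. None of the 48 cassette exons of the family differed by more than 0.05, where 5.50% of all 108413 cassette exons did, and no PSI row covered a poison exon of Srsf3, Srsf4, Srsf7, Srsf9 or Srsf11.

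Genes that act with SR proteins were described from a list of 24 kinases, transport receptors, SR-related proteins and spliceosome contacts. In edgeR 0 of the 24 were called, and 11 had an unadjusted p under 0.05, all higher in Ag+Costim, where 7.89% of all genes and 20.2% of those with at least 10 CPM were. Without overlap 7 were higher, against 4.48% of all genes and 11.3% of those with at least 10 CPM, and 0 were lower. DESeq2 called 9 of them, all higher, where it called 2.57% of all genes higher. Its share among genes with at least 10 CPM was not counted, so weakly expressed genes weigh on that comparison. Weighted limma called 12 higher and 5 lower, against 25.7% and 26.3% of all genes. Of the genes with at least 10 CPM it called 57.6% higher. Their log2 fold changes had a median of 0.31, where that of the genes with at least 10 CPM was 0.24 and that of all genes tested -0.32. Of the 24 partners 19 were above 0, and the share of all genes above 0 was not counted.

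The 4 with the lowest p were Scaf1, Snrnp70, Tra2b and Tra2a. Scaf1, an SR-related protein that binds the polymerase tail, was at 33.1, 32.9, 39.8, 41.1 and 29.8 CPM in Ag and 49.3, 53.0, 60.0, 61.4 and 60.4 CPM in Ag+Costim (log2 fold change 0.68, SE 0.13, BH-adjusted p = 0.134 in edgeR). Snrnp70, the U1 protein that SR proteins contact at the 5′ splice site, was at 83.2, 129, 102, 97.5 and 139 CPM and at 183, 181, 167, 210 and 177 CPM (0.74, SE 0.16, BH-adjusted p = 0.147). Tra2b, an SR-like activator that also has a poison exon, was at 130, 320, 176, 155 and 235 CPM and at 418, 434, 383, 509 and 381 CPM (1.06, SE 0.24, BH-adjusted p = 0.152), and its paralogue Tra2a was at 35.1, 27.0, 27.4, 39.9 and 27.7 CPM and at 46.8, 53.3, 46.7, 54.7 and 43.7 CPM (0.64, SE 0.15, BH-adjusted p = 0.153). The groups did not overlap in any of the 4. In Tra2a, Ag replicates 1 and 4 were the highest Ag libraries, which was so for none of the members.
The 8 kinases of the list, named after their values were seen, differed in direction. Clk2 had a log2 fold change of 0.40 (SE 0.17), Clk3 of 0.20 (SE 0.16), Prpf4b of 0.14 (SE 0.19) and Srpk1 of 0.00 (SE 0.18). Srpk2 had one of -0.07 (SE 0.15), Dyrk1a of -0.22 (SE 0.18), Clk4 of -0.28 (SE 0.23) and Clk1 of -0.56 (SE 0.37). BH-adjusted p lay between 0.268 and 0.990 in edgeR, while weighted limma called the last 4 lower. Clk1 was at 198, 99.4, 72.1, 271 and 70.8 CPM in Ag and 116, 106, 91.3, 85.6 and 83.0 CPM in Ag+Costim, so that replicates 1 and 4, the lowest Ag libraries for most members, were its highest.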

How the data were processed

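The authors aligned reads to mm10 with HISAT2 2.1.0 and quantified genes and transcripts with StringTie 2.1.0, as the submitters' processing notes and the study's methods say. The deposited values are expected counts (estimated from coverage, rounded), not normalized, and their totals are not numbers of reads. The authors also deposited a PSI fraction per group and splicing event from Whippet, together with their own PSI difference and a probability score, which were not used. PSI events were therefore chosen by the difference alone, and no limit on that probability was applied. The labels list 15 samples, of which 10 had count columns, and 0 other columns of samples were left out. Entries without a gene identifier of GENCODE M21 (26345, 0.0603% of the counts) were left out of totals and tests.

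Testing used edgeR 4.0.16 (quasi-likelihood, filterByExpr, TMM factors) in R 4.3.3, beside DESeq2 1.42.0 and limma 3.58.1, with adjustment over all features tested and a threshold of 0.05. SE was taken as the log2 fold change over the root of the F statistic. Usage needed a change of mean share over 0.1 as a fraction. Shares and exon inclusion needed at least 50 counts in every library and were compared over all genes by exact permutation (two-sided, 252 assignments), whose smallest p is 0.0079. Named transcripts held at least 5% of counts or entered a described share, except Srsf6-202, Srsf10-201 and Srsf7-202. Srsf6-202 was named for its exon, and Srsf10-201, Srsf7-202 and the kinases were chosen after their values were seen. All 10 members were named, and of the partners the 4 with the lowest p because fewer than 3 passed the test. Counting was not stated to use strand, and reads of overlapping antisense genes cannot be told apart. The tests were checked on simulated data with large changes and libraries of even spread. That check does not cover libraries as unlike as those of the Ag group, or changes as small as those of the members. The members and gene lists were chosen with earlier results of these data known.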

Additional observations from a re-analysis of the deposited data

Results flagged for a closer look

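In 72 groups of 5 libraries (gene CPM, NMD share, retained intron share and poison exon inclusion of the members), 4 held a library far from the others by Dixon's criterion, and chance marks about 1 in 20 groups. Ag+Costim replicate 4 was high for the NMD share of Srsf3, at 33.2% where the other Ag+Costim libraries had 4.66 to 8.53%. The same library stood out for inclusion of the Srsf3 poison exon, at 36.0%, which rests on the same counts. It was also high for Srsf10, at 257 CPM where the others had 191 to 209 CPM. Ag+Costim replicate 2 was high for the retained intron share of Srsf6, at 8.95%. The causes were not tested.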

How the results depend on the processing

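Calls over all genes went from 0 to 8046 with DESeq2 and to 12632 with weighted limma, and members called from 0 to 1 and 9. Members higher without overlap went from 1 to 5 without the filter on low counts, to 2 without Ag replicates 1 and 4, and ranged from 1 to 4 leaving out single libraries. Transcripts called went from 6 to 0 with the replicate block. Genes with changed usage went from 31 to 145 with limma diffSplice and to 19 with at least 50 counts in 5 libraries, and ranged from 33 to 92 leaving out single libraries. PSI events went from 5 to 3 at a difference over 0.1. Signs turned for Srsf5 with total counts (log2 fold change -0.00198), for Srsf9 without Ag replicates 1 and 4 (-0.045), for the Srsf6 NMD share with retained introns added (-0.12 points), and, leaving out single libraries, for the NMD shares of Srsf5 (-0.022 to 0.00072 points) and Srsf4 (-0.21 to 0.044 points) and for the Srsf4 exons starting at 131885309 (-0.26 to 0.011 points) and 131886131 (-0.048 to 0.17 points). The cause was not tested. The replicate block gave 30 genes with changed usage and changed no call of a member. Same-numbered libraries correlated between -0.41 and 0.21, so no signal shared by number was seen. Such correlations cannot show whether the design paired the libraries. Poison exon estimates rest on StringTie's assignment of reads to transcripts, and low counts limit small shares. Transcript shares and exon inclusion were taken from counts without correction for transcript length. The PSI alternative with a stricter probability was not run.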
